A study of Rattus norvegicus with 12 samples.

Results

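Genes of fatty acid uptake and beta-oxidation were followed across the 4 groups of cultured neonatal rat ventricular cardiomyocytes. The list held 47 genes, from the enzymes that release and import fatty acids to the mitochondrial oxidation spiral and ketone body use. A gene was represented by the array probe set that names it alone, and by the one with the highest mean over the 12 arrays where there were several. Of the 47 genes, 45 had such a probe set among the 14497 genes of the array, and 41 lay above the filter on dim probe sets and were tested among 10025 genes.

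The cells came from newborn Wistar rats and were plated for 44 h and then kept in serum-free medium for 24 h. Each group had 3 arrays, labelled as biological replicates without a statement of separate isolations. The p-values therefore set a difference against the spread between these samples within groups, pooled over the 4 groups. The control cultures were untreated. The γ+ cultures received adenovirus carrying mef2Cγ+, the γ- cultures mef2Cγ-, and the 23/24 cultures mef2Cγ+23/24, a variant that the labels do not define. MEF2C is a transcription factor of muscle genes, and its γ segment, kept or skipped by splicing, is known as a repressor domain. No group received adenovirus without an insert, and the labels do not name the promoter that drove the transgenes. No probe set is named for Mef2c, so the transgene could not be checked.

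Heart muscle draws most of its ATP from fatty acids after birth. Lipoprotein lipase frees fatty acids from triglyceride, CD36 and fatty acid transport proteins bring them in, and acyl-CoA synthetases activate them. Carnitine palmitoyltransferase 1 at the outer mitochondrial membrane is the step that malonyl-CoA inhibits. Inside, acyl-CoA dehydrogenases, hydratase, hydroxyacyl-CoA dehydrogenase and thiolase shorten the chain in turn, and electrons leave through the electron transfer flavoprotein.

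All values are log2 intensities as deposited. All 11 cardiomyocyte markers and all 10 fibroblast markers were above the filter. So were the 7 of 8 endothelial markers that had a probe set naming them alone, which Vwf lacked. RNA of other heart cells was therefore measured with that of the myocytes. Exactly equal values occurred in all 21 array pairs within the γ+ group, within the γ- group, or within the control and 23/24 arrays together (27 to 111 values per pair), and in 0 of the other 45 pairs. The ties divide the arrays into 3 sets, and the 23/24 group against control is the one comparison within a set. No label or header says whether the sets were processed apart, for example in separate normalization runs. If they were, processing and group cannot be told apart in the other 5 comparisons. One γ+ array stood apart: replicate 2 was the lowest of its group for 29 of the 41 members (70.7%) and for 53.2% of all genes. The members had a median SD of 0.13 among γ+ arrays and of 0.05 among control arrays, so results that rest on this array are also given without it.

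Against control, genes along the whole path were lower in the γ+ cultures. The muscle carnitine palmitoyltransferase Cpt1b, the transporter Cd36, the malonyl-CoA-forming Acacb, the pyruvate dehydrogenase kinase Pdk2 and the long-chain synthetase Acsl1 fell most, by 2.30-fold to 3.07-fold. With limma (adjusted p under 0.05, Benjamini-Hochberg over all genes) 30 of 41 members fell and 1, Hadh, rose, and 10 were not called. Among all genes 64.9% were called, 38.7% lower and 26.2% higher. The median log2 difference was -0.44 for the members and -0.07 for all genes tested. The γ+ arrays lay wholly below the control arrays in 33 of 41 members and in 4005 of 10025 genes. They lay wholly above in 1 member and in 2670 genes. A fall of at least 1 log2 was called in 5 of 41 members, where the share over all genes was 5.95%. Without γ+ replicate 2 the counts were again 30 and 1, and the median was -0.37. All 31 calls held when the arrays were centred on their medians or quantile-normalized, although among all called genes the share that rose went from 40.4% to 51.2% with centring. Of the 10 not called, Acot2 passed without γ+ replicate 3, Acsl6 without γ+ replicate 1, and Eci1 without γ+ replicate 1, control replicate 2 or γ- replicate 2 or 3.

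**Figure D1:**
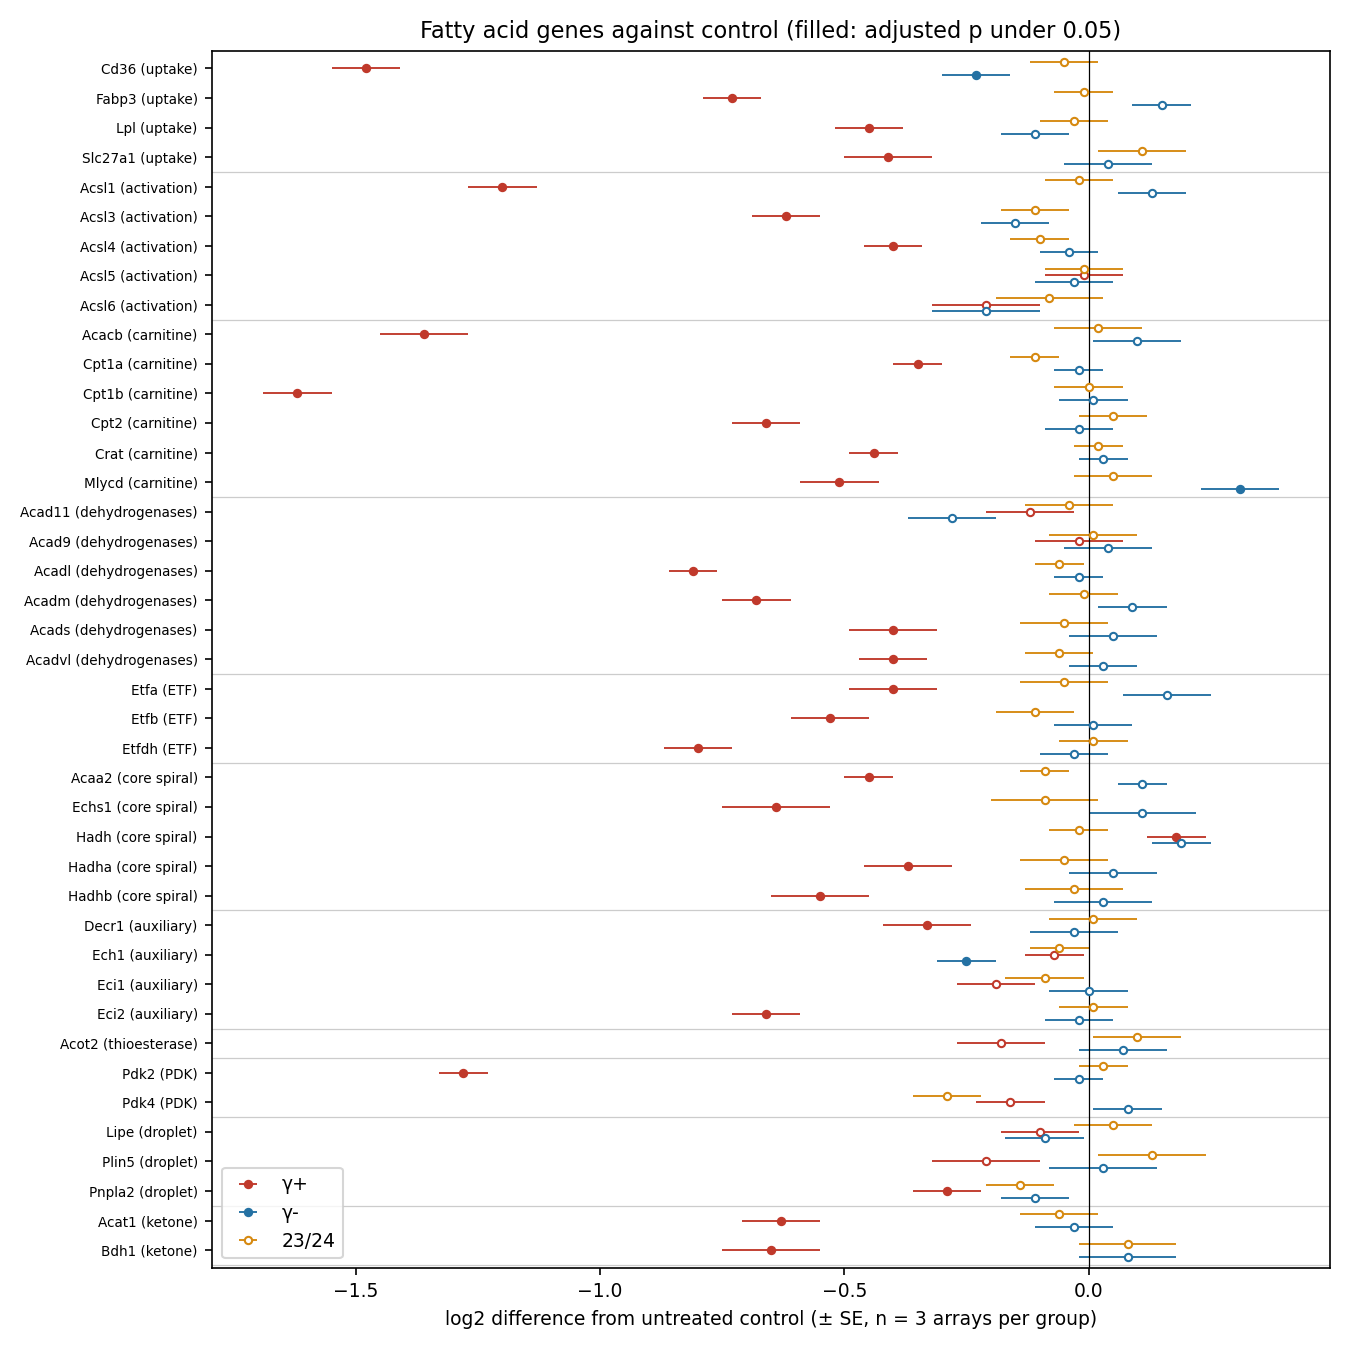
Log2 difference from untreated control (horizontal axis, mean ± SE, 3 arrays per group) for the 41 tested members in the γ+, γ- and 23/24 groups, ordered by role; filled points have a limma adjusted p under 0.05. The γ+ points reach -1.62 at Cpt1b, while no γ- or 23/24 point lies beyond 0.31 in size.

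All 4 genes of uptake and supply fell in the γ+ group, where 38.7% of all genes were called lower. Cd36, the main fatty acid translocase of heart, read 9.67, 9.81 and 9.77 in the control and 8.37, 8.13 and 8.30 in the γ+ group, with no overlap. The difference was -1.48 ± 0.07 (SE, n = 3 per group; limma adjusted p = 1.2e-11). A dimmer second Cd36 probe set gave the same order, with 4.85 to 5.67 in the control and 2.87 to 4.34 in the γ+ group. Fabp3, the fatty acid binding protein of the heart cytosol, went from 11.17, 11.07 and 11.08 to 10.47, 10.27 and 10.40, a difference of -0.73 ± 0.06 (limma adjusted p = 7.2e-09). Lpl, which encodes lipoprotein lipase, changed by -0.45 ± 0.07 and the transport protein Slc27a1 by -0.41 ± 0.09.

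The acyl-CoA synthetases, which attach coenzyme A to free fatty acids, differed among themselves. Acsl1, the main form in heart, read 9.23, 9.19 and 9.24 in the control and 8.06, 7.85 and 8.15 in the γ+ group. It fell by 1.20 ± 0.07 log2 (SE, n = 3 per group; limma adjusted p = 1.2e-10). Acsl3 and Acsl4 fell less, with differences of -0.62 ± 0.07 and -0.40 ± 0.06. Acsl5 was not called at -0.01 ± 0.08 (95% interval -0.18 to 0.16), nor was Acsl6 at -0.21 ± 0.11, a probe set whose mean of 4.78 lies at the filter limit. Within an array, Acsl1 relative to Acsl5 stood 1.13 to 1.24 log2 below its control mean on the 3 γ+ arrays, so these members changed unequally. This pair and the pairs below were chosen after their values were seen and are a description.

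All 6 genes of the carnitine shuttle and its control by malonyl-CoA fell, where 38.7% of all genes were called lower. Cpt1b, the carnitine palmitoyltransferase of muscle, read 8.50, 8.58 and 8.46 in the control. On the γ+ arrays it read 7.00, 6.75 and 6.92, so every γ+ array lay more than 1 log2 below every control array. The difference was -1.62 ± 0.07 (SE, n = 3 per group; limma adjusted p = 7.8e-12). Cpt1a, the form of liver and fetal heart, read 7.99, 7.97 and 8.00 in the control and 7.70, 7.61 and 7.60 in the γ+ group. Its difference was -0.35 ± 0.05, with no overlap. Cpt1b relative to Cpt1a was 1.21 to 1.39 log2 lower than the control mean within the γ+ arrays. On the other 9 arrays this relation stayed between -0.07 and 0.14.

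Cpt2, the inner-membrane transferase, went from 8.68, 8.59 and 8.65 to 8.05, 7.86 and 8.03 (-0.66 ± 0.07), and Crat, which acts on short-chain acyl groups, changed by -0.44 ± 0.05. Slc25a20, the carrier between these enzymes and no member of the list, was named after its value was seen (-0.21 ± 0.07, limma adjusted p = 0.0183). Both enzymes that set malonyl-CoA at the mitochondrion were lower. Acacb, the acetyl-CoA carboxylase that makes it, read 7.06, 7.13 and 6.89 in the control and 5.66, 5.51 and 5.83 in the γ+ group (-1.36 ± 0.09, limma adjusted p = 1.1e-09). Mlycd, the decarboxylase that removes it, read 6.88, 6.98 and 7.07 in the control and 6.54, 6.40 and 6.46 in the γ+ group (-0.51 ± 0.08). The enzymes that make and remove malonyl-CoA therefore both lay outside their control range, Acacb by the larger difference.

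**Figure D2:**
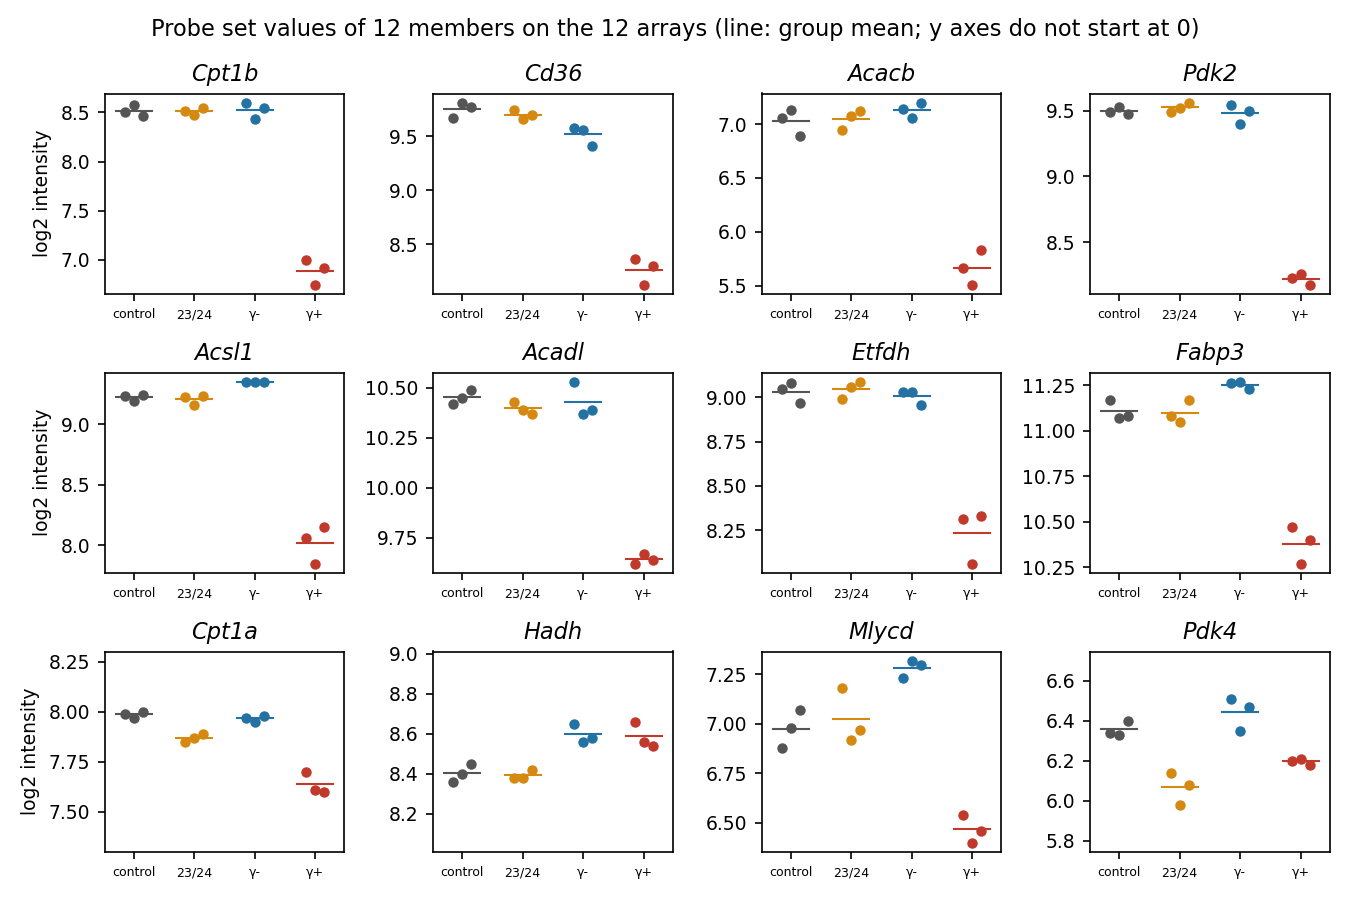
Log2 intensity (vertical axis, not starting at 0) of 12 members on each array, by group; points are arrays and lines are group means. The γ+ arrays lie below the other 9 for Cpt1b, Cd36, Acacb, Pdk2, Acsl1, Acadl, Etfdh, Fabp3, Cpt1a and Mlycd, but not for Hadh or Pdk4.

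Of the 6 acyl-CoA dehydrogenases tested, 4 fell (66.7%) and the others were not called. Of all genes 38.7% were called lower and 64.9% in either direction. Acadl, the long-chain enzyme, read 10.42, 10.45 and 10.49 in the control and 9.62, 9.67 and 9.64 in the γ+ group (-0.81 ± 0.05, limma adjusted p = 6.8e-10). The medium-chain enzyme Acadm changed by -0.68 ± 0.07, the short-chain enzyme Acads by -0.40 ± 0.09 and the very-long-chain enzyme Acadvl by -0.40 ± 0.07. Acad9, which also serves the assembly of respiratory complex I, was not called at -0.02 ± 0.09 (95% interval -0.21 to 0.17), and Acad11 was not called at -0.12 ± 0.09. The electron acceptors downstream were lower. Etfdh, which passes electrons to ubiquinone, read 9.05, 9.08 and 8.97 in the control and 8.31, 8.06 and 8.33 in the γ+ group (-0.80 ± 0.07). Etfb and Etfa, the subunits of the flavoprotein, changed by -0.53 ± 0.08 and -0.40 ± 0.09.

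The later steps of the spiral did not move together. Echs1, the short-chain enoyl-CoA hydratase, changed by -0.64 ± 0.11 and Acaa2, the mitochondrial thiolase, by -0.45 ± 0.05. The subunits of the trifunctional protein, which joins the last 3 steps for long chains, were both lower. Hadha read 10.86, 10.93 and 10.86 in the control and 10.67, 10.22 and 10.64 in the γ+ group (-0.37 ± 0.09, limma adjusted p = 0.00132). Without γ+ replicate 2 it was -0.22 (adjusted p = 9.5e-05). Its second probe set read 7.03 to 7.28 in the control and 6.75 to 6.98 in the γ+ group. Hadhb read 10.04, 10.12 and 10.09 in the control and 9.68, 9.18 and 9.74 in the γ+ group (-0.55 ± 0.10, and -0.37 without that array). Hadh, the hydroxyacyl-CoA dehydrogenase for shorter chains, read 8.36, 8.40 and 8.45 in the control and 8.66, 8.56 and 8.54 in the γ+ group. It rose by 0.18 ± 0.06 (limma adjusted p = 0.00911), a call lost without γ+ replicate 1.

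Hadha and Hadhb are neighbours that start back to back. In RefSeq's GRCr8 assembly their start sites lie 301 bases apart on opposite strands of chromosome 6, and the windows from 250 bases before to 50 after each start share 200 bases. They are shown because a shared upstream stretch belongs to the genes of 1 enzyme complex, both of which fell. The windows of Acacb (chr12:48138165-48138464, minus strand) and Acadvl (chr10:55236656-55236955, minus strand) are shown as the 2 members with 2 matches each to AGGTCA, the core element that PPAR, ERR and other nuclear receptors bind. Hadha covers chr6:31907551-31907850 on the plus strand and Hadhb chr6:31907451-31907750 on the minus strand. Each is read 5′ to 3′ in the direction of its gene, and capitals mark AGGTCA on either strand.
Hadha: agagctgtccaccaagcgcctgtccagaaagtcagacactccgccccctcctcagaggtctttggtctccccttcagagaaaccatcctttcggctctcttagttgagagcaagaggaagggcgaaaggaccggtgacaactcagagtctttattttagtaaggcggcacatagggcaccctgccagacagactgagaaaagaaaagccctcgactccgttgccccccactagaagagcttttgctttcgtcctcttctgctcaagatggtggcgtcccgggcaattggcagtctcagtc
Hadhb: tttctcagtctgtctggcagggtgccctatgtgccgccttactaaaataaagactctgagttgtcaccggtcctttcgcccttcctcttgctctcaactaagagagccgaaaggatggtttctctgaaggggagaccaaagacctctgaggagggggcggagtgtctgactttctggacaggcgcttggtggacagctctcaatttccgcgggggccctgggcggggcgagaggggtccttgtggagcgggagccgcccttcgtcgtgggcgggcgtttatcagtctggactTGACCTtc
Acacb: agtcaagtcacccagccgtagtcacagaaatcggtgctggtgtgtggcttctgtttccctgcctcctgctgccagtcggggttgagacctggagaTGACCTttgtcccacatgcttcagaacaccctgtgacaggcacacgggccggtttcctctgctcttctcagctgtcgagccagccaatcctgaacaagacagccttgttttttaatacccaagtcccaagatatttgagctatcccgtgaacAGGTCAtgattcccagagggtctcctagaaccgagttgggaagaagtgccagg
Acadvl: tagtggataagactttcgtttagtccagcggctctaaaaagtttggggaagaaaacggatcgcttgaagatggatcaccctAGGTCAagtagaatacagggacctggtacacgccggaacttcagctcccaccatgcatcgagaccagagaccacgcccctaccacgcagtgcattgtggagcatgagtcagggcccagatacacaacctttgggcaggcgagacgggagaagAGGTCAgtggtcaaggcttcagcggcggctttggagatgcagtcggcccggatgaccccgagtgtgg
With the start site as position 0, the matches began at -155 and -3 in Acacb, at -169 and -17 in Acadvl and at 42 in Hadhb, and Hadha had none. A window was present for 40 of the 47 genes, some of them without a test, such as Acot1 and Oxct1. It was missing for Cpt1b, Acadl, Ech1, Acaa2, Decr1, Lpl and Lipe, so the counts below do not cover these genes. Of the 40 windows, 9 (22.5%) held AGGTCA on either strand, against 16.2% of 33469 promoter windows of that length. The 10-base MEF2 consensus, searched on both strands, was in 0 of the 40 windows and in 3.29% of all windows. TCAAGGTCA, the longer site of ERR factors, which contains AGGTCA, was in 0 of 40 and 0.433% of all, and the direct repeat AGGTCANAGGTCA in 0 of 40 and 0.0538%. A match is a string of letters and not a measured site, and sites farther from the start were not searched.

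Auxiliary enzymes, which prepare unsaturated chains for the spiral, were mixed. Eci2 changed by -0.66 ± 0.07 and Decr1 by -0.33 ± 0.09 (-0.21 without γ+ replicate 2), both called. Eci1 (-0.19 ± 0.08) and Ech1 (-0.07 ± 0.06) were not called. The ketone body genes Acat1, the mitochondrial acetoacetyl-CoA thiolase, and Bdh1, which interconverts the ketone bodies, changed by -0.63 ± 0.08 and -0.65 ± 0.10. Of the lipid droplet genes, Pnpla2, which encodes adipose triglyceride lipase, fell by 0.29 ± 0.07 log2 (SE, n = 3 per group; limma adjusted p = 0.00190). The hormone-sensitive lipase Lipe (-0.10 ± 0.08) and the droplet coat protein Plin5 (-0.21 ± 0.11) were not called. Neither was the mitochondrial thioesterase Acot2 (-0.18 ± 0.09).

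The pyruvate dehydrogenase kinases, which hold back glucose oxidation when fat is burned, parted. Pdk2 read 9.49, 9.53 and 9.47 in the control and 8.23, 8.26 and 8.18 in the γ+ group (-1.28 ± 0.05, limma adjusted p = 4.7e-12). Pdk4, the kinase induced by fasting, read 6.34, 6.33 and 6.40 in the control and 6.20, 6.21 and 6.18 in the γ+ group. Its arrays did not overlap, but the difference of -0.16 ± 0.07 was not called (limma adjusted p = 0.0600). When limma was run without an intensity trend, Pdk4 and Acsl6 were called lower as well. Relative to Pdk4, Pdk2 was 1.09 to 1.14 log2 below its control mean within the γ+ arrays.

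The remaining members had no test. Acad10, Acot1, Ehhadh and Oxct1 lay under the filter limit of 4.78, with means of 4.64, 2.86, 4.71 and 3.96 over the 12 arrays. Acaa1a and Decr2 had only probe sets shared with Acaa1b and Nme4. The shared probe set of Acaa1b and Acaa1a read 7.28 to 7.42 in the control and 6.66 to 7.03 in the γ+ group, and that of Nme4 and Decr2 read 5.71 to 5.78 and 5.83 to 6.27. Which gene of each pair these values follow cannot be told.

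The γ+ group was set against the γ- group to compare the splice forms with each other. The same path was lower in the γ+ than in the γ- group: 32 of 41 members were lower and 1, Ech1, was higher (limma). Of all genes 64.2% were called, 37.5% lower and 26.7% higher. The median was -0.47 for the members and -0.06 for all genes. The largest differences were in Cpt1b (-1.63 ± 0.07), Acacb (-1.46 ± 0.09), Acsl1 (-1.33 ± 0.07), Pdk2 (-1.26 ± 0.05) and Cd36 (-1.25 ± 0.07). On the γ- arrays Cpt1b read 8.60, 8.43 and 8.55 and Acsl1 read 9.35 on each, above the highest γ+ values of 7.00 and 8.15. Acacb read 7.14, 7.06 and 7.20 there, and Pdk2 read 9.54, 9.40 and 9.50. None of these genes, picked for their large differences, overlapped between the groups. The γ+ arrays lay wholly below the γ- arrays in 31 of 41 members and in 3948 of 10025 genes. They lay wholly above in 1 member and in 2779 genes. The next largest differences were in Fabp3 (-0.87 ± 0.06) and Mlycd (-0.82 ± 0.08).

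Ech1, a dienoyl-CoA isomerase, was 0.18 ± 0.06 higher in the γ+ than in the γ- group (limma adjusted p = 0.0218). It read 7.67, 7.80 and 7.63 in the γ+ group and 7.53, 7.52 and 7.51 in the γ- group. The call was lost without γ+ replicate 2 or γ- replicate 2 or 3. Hadh did not differ beyond its error between these groups (-0.01 ± 0.06; 95% interval -0.13 to 0.11). Acot2, Pdk4 and Pnpla2 were lower in the γ+ group but not called under median centring. Acot2 was also lost without γ+ replicate 2 (-0.11) or γ- replicate 2 or 3, Pnpla2 without γ+ replicate 1 or 3 or any γ- array, and Decr1 without γ- replicate 1. Without γ+ replicate 2, Decr1 went from -0.30 to -0.17 and Pnpla2 from -0.18 to -0.27, both still called. Eci1, Acsl5 and Plin5, not called here, each passed in some of the runs that leave out an array.

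Setting the γ+ group against the 23/24 group compared mef2Cγ+ with its labelled variant. Here 31 of 41 members were lower and 1, Hadh, was higher (limma; of all genes 65.8% were called, 37.9% lower and 28.0% higher), with a median of -0.42 against -0.07. Cpt1b differed by -1.62 ± 0.07, Cd36 by -1.43 ± 0.07, Acacb by -1.38 ± 0.09, Pdk2 by -1.30 ± 0.05 and Acsl1 by -1.18 ± 0.07. On the 23/24 arrays Cd36 read 9.74, 9.66 and 9.70 and Pdk2 read 9.49, 9.52 and 9.56, with no overlap with the γ+ group. Acacb read 6.95, 7.08 and 7.12 there, and Acsl1 read 9.22, 9.16 and 9.23, also without overlap. The γ+ arrays lay wholly below the 23/24 arrays in 31 of 41 members and in 3917 of 10025 genes. They lay wholly above in 2 members and in 2843 genes. Median centring moved the median of all genes by more than 0.1 log2, from -0.07 to 0.07, and the share of higher genes among calls from 42.5% to 58.5%. It left 23 members lower and 2 higher. The 8 lost were Acads, Acadvl, Acot2, Cpt1a, Decr1, Etfa, Hadha and Plin5, none with a difference beyond -0.35, while Pdk4 was gained as higher. Plin5 was also lost without 23/24 replicate 1, and Pnpla2 was gained without γ+ replicate 2. Without that array Acot2 went from -0.28 to -0.15, Decr1 from -0.34 to -0.21, Hadha from -0.32 to -0.18 and Hadhb from -0.52 to -0.34, all still called.

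**Figure D3:**
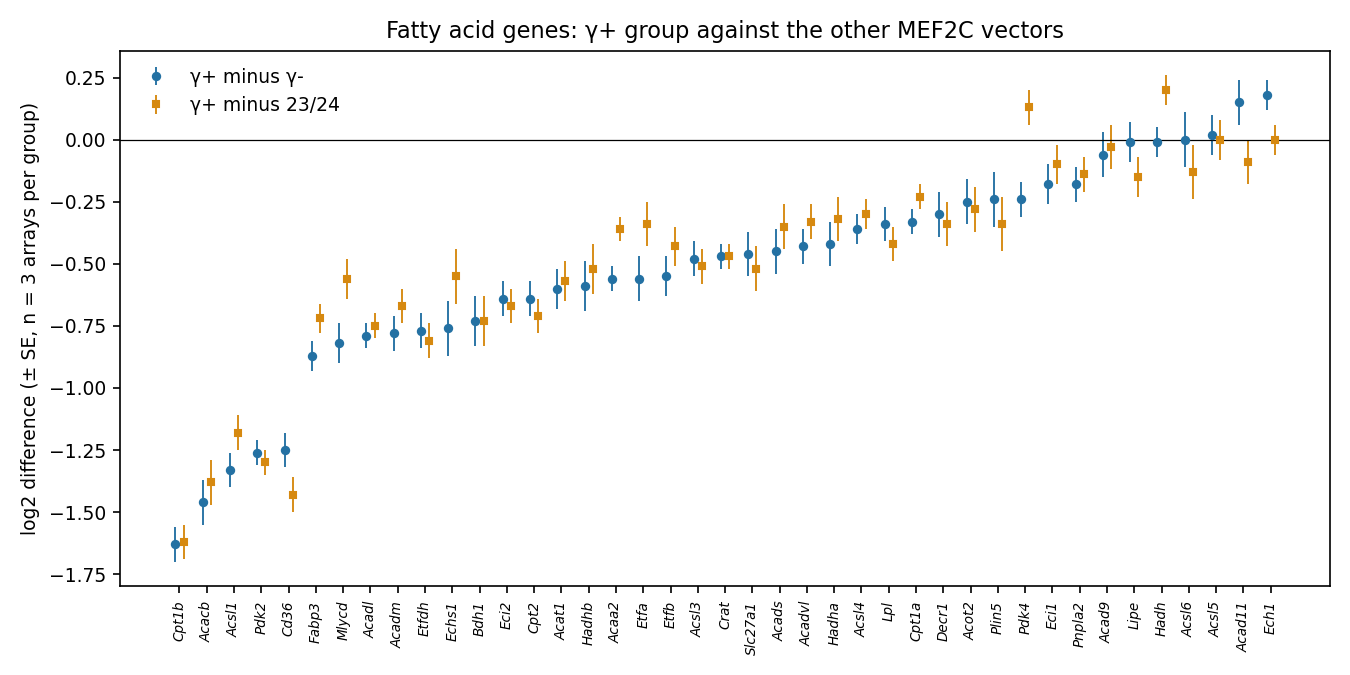
Log2 difference of the γ+ group from the γ- group (circles) and from the 23/24 group (squares), mean ± SE with 3 arrays per group, for the 41 tested members ordered by the first. Both start at Cpt1b (-1.63 and -1.62), and Pdk4 lies at -0.24 in the first and 0.13 in the second; the series share the γ+ arrays.

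On 30 of the 41 tested members all 3 γ+ arrays lay below all other 9 arrays, a pattern seen in 31.5% of all genes. No member had its γ+ arrays above the other 9, which 21.7% of all genes did.

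The picture of the γ- group against control was nearly flat. In the γ- group 1 member rose, Mlycd, and 2 fell, Ech1 and Cd36 (limma), which is 7.32% of 41 members where 6.94% of all genes were called, 3.06% higher and 3.88% lower. The median was 0.01 for the members and -0.01 for all genes. Mlycd read 7.23, 7.32 and 7.30 in the γ- group, above the control range of 6.88 to 7.07, a difference of 0.31 ± 0.08 (limma adjusted p = 0.0283). Cd36 read 9.58, 9.56 and 9.41, below the control range of 9.67 to 9.81 (-0.23 ± 0.07, limma adjusted p = 0.0477). Ech1 changed by -0.25 ± 0.06 (limma adjusted p = 0.0316), with control values of 7.85, 7.75 and 7.72. Ech1 and Cd36 were lost under median centring and without any single control or γ- array, and Cd36 also without γ+ replicate 3 or any 23/24 array. Mlycd was lost without control replicate 1 or 2 or any of the γ- arrays. The second Cd36 probe set did not follow, at 5.19 to 5.84 in the γ- group. Markers of macrophages or leukocytes and of endothelium, cells that also express Cd36, were mostly lower on the same arrays. Of these markers 3 of 7 and 2 of 7 fell (42.9% and 28.6%). Mean levels of the lists were 0.13 to 0.18 and 0.12 to 0.18 log2 below the control mean. Differences above 0 were seen in 2 of 7 and 1 of 7 markers, up to 0.22 and 0.05 log2, with 0 called. The part of these cells in the Cd36 difference was not tested.

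For the other members the γ- difference was small. The 95% intervals of all 41 lay within 0.5 log2 of 0, from -0.47 for Acad11 to 0.48 for Mlycd. Cpt1b differed by 0.01 ± 0.07 (interval -0.14 to 0.16) and Cpt1a, which read 7.97, 7.95 and 7.98, by -0.02 ± 0.05. Cpt2 read 8.64, 8.55 and 8.67 in the γ- group, Hadha 10.99, 10.90 and 10.92, and Hadhb 10.18, 10.14 and 10.04, all overlapping their control arrays. Hadh, which rose in the γ+ group, read 8.65, 8.56 and 8.58 in the γ- group, above all control arrays, but was not called (0.19 ± 0.06, limma adjusted p = 0.0512). The γ+ and γ- differences share the control arrays. Without γ+ replicate 2, whose spread enters the pooled error, 4 members rose and 4 fell, and 16.6% of all genes were called.

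No member was called in the 23/24 group against control. The count was 0 of 41 by limma, where 0 of 10025 genes (0%) were called, and at an unadjusted p under 0.05 it was 1 of 41 members and 899 of all genes. Without γ+ replicate 2 it was again 0 of 41, with 58 genes (0.579%) called. The 95% intervals of all 41 members lay within 0.5 log2 of 0. Cpt1b read 8.51, 8.47 and 8.55, amid the control values, with a difference whose interval ran from -0.15 to 0.15. Cpt1a read 7.85, 7.87 and 7.89, below every control array (-0.11 ± 0.05, limma adjusted p = 0.563). Pdk4 read 6.14, 5.98 and 6.08, also below every control array (-0.29 ± 0.07, interval -0.44 to -0.14, limma adjusted p = 0.236). It passed with array weights. On the 23/24 arrays 5 of 41 members lay wholly below the control arrays, as did 1221 of 10025 genes. Cpt2 read 8.56, 8.73 and 8.77, Hadha 10.79, 10.83 and 10.88, and Hadhb 10.01, 10.10 and 10.05, which overlapped the control values.

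Between the γ- and 23/24 groups 3 of 41 members (7.32%) were higher in the γ- group and 0 lower (limma). Of all genes 8.10% were called, 4.16% higher and 3.94% lower. Pdk4 was higher by 0.37 ± 0.07 (limma adjusted p = 0.00583), with 6.51, 6.35 and 6.47 in the γ- group. Hadh and Acaa2 were each higher by 0.20, with SE of 0.06 and 0.05 and limma adjusted p of 0.0338 and 0.0223. On the 23/24 arrays Hadh read 8.38, 8.38 and 8.42 and Acaa2 read 8.94 on each, below its γ- values of 9.10, 9.13 and 9.19. Pdk4 held in all 21 alternatives, whereas Hadh and Acaa2 were each lost without any single array of either group. At an unadjusted p under 0.05 there were 10 of 41 members and 2454 of 10025 genes, nearly the same share. Without γ+ replicate 2, 8 members were higher and 2 lower, with 18.3% of all genes called. Under median centring the share of higher genes among all calls went from 51.4% to 77.9%.

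Regulators of the path and further genes of it come from lists that were set with earlier results known. Of 20 tested regulators 14 fell and 1, the kinase subunit Prkaa1, rose in the γ+ group against control, with a median of -0.38. That is 75.0% called, where 64.9% of all genes were called and the median was -0.07. Ppara, the fatty acid receptor that drives many of these genes, read 7.40, 7.28 and 7.34 in the control and 5.72, 5.91 and 5.72 in the γ+ group (-1.56 ± 0.07, limma adjusted p = 1.2e-11). The coactivators Ppargc1b and Ppargc1a changed by -1.50 ± 0.06 and -0.82 ± 0.07, and the receptor Esrrg by -0.96 ± 0.07. Prkaa1, a catalytic subunit of AMP-activated kinase, rose by 0.72 ± 0.06. The other catalytic subunit, Prkaa2, fell by 0.69 ± 0.05 log2 and the regulatory subunit Prkag2 by 0.93 ± 0.08, both named after their values were seen (limma adjusted p = 2.4e-09 and 5.1e-08). In the γ- group Ppargc1a rose by 0.30 ± 0.07 (limma adjusted p = 0.0249), the 1 regulator of 20 called there (5.00%, beside 6.94% of all genes), and 0 of 20 were called in the 23/24 group. Ppara differed by 0.02 ± 0.07 and -0.09 ± 0.07 in these groups.

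Of 38 further genes of the path 27 fell and 3 rose in the γ+ group (median -0.29), 78.9% called beside 64.9% of all genes. Vldlr, a receptor for triglyceride-rich particles, changed by -1.68 ± 0.07, G0s2, an inhibitor of adipose triglyceride lipase, by -1.64 ± 0.06, and the thioesterase Acot13 by -1.10 ± 0.06. Slc27a3 rose by 1.24 ± 0.10, from 5.25, 5.33 and 5.26 to 6.66, 6.29 and 6.61. Pdk1 and Pdk3 rose by 0.27 each, with SE of 0.06 and 0.05 (limma adjusted p = 1.0e-03 and 2.5e-04). In the γ- group 2 of the 38 fell and 0 rose (5.26%, beside 6.94% of all genes), and in the 23/24 group 0 of 38 were called.

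Markers of each of the 5 heart cell types listed were mostly lower on the γ+ arrays too. In bulk RNA, fewer cells of a type and less RNA per cell cannot be told apart. Against control 11 of 11 cardiomyocyte markers fell, with their mean level 1.10 to 1.16 log2 below the control mean on the 3 arrays. All 10 fibroblast markers fell (1.32 to 1.49 lower), as did 7 of 7 endothelial markers (0.73 to 0.86), 4 of 5 smooth muscle markers (0.75 to 0.83) and 5 of 7 macrophage or leukocyte markers (0.36 to 0.41). Over all genes 38.7% were called lower and 26.2% higher. The mean over the 41 members was 0.45 to 0.63 lower. In the γ- group the means were 0.03 to 0.05 above control for cardiomyocyte markers and 0.11 to 0.15 below for fibroblast markers, of which 1 of 10 fell. There 1 of 11 cardiomyocyte markers rose and 0 of 5 smooth muscle markers were called, where 6.94% of all genes were called. In the 23/24 group 0 markers of these 5 lists were called, as was 0% of all genes. The endothelial mean there was 0.08 to 0.11 below control. The adipocyte markers Adipoq, Plin1, Cidec and Lep and the leukocyte marker Ptprc lay under the filter, and 1 of the 2 adipocyte markers tested fell in the γ+ group. The part of cell make-up in the members' differences was not tested.

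**Figure D4:**
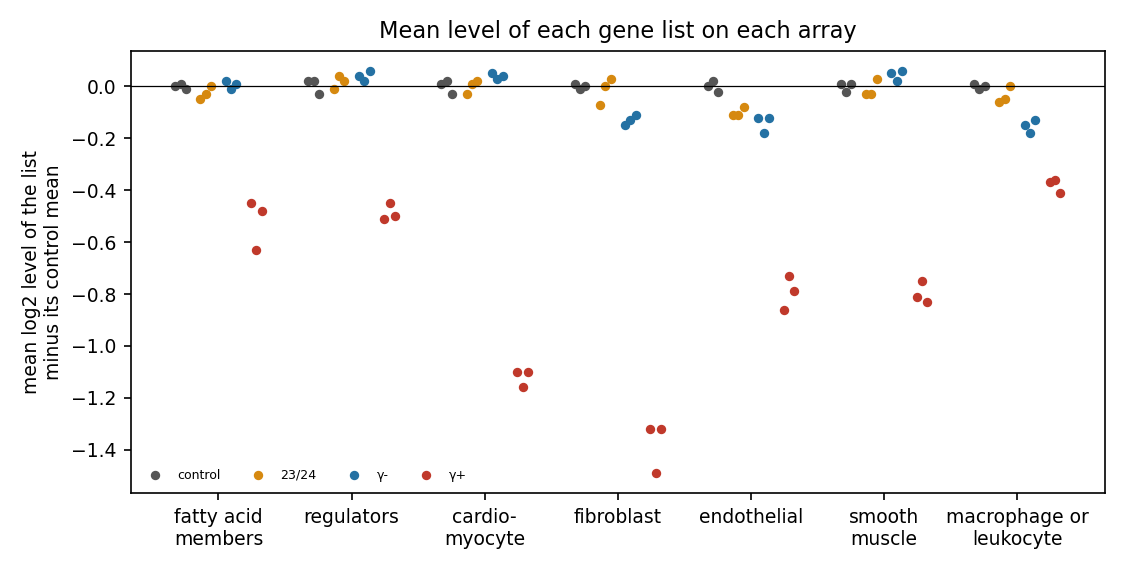
Mean log2 level of the 41 members, of the regulators and of 5 marker lists on each array, minus the list's control mean (vertical axis); each point is 1 array. On the γ+ arrays the members lie 0.45 to 0.63 below control and every marker list is below its control arrays.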

How the data were processed

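Total RNA (2 µg per array) was labelled for Affymetrix rat arrays. The deposited table holds 1 log2 value per probe set and array; that the scale is log2 was read from its range (1.09 to 13.89) and array medians (5.33 to 5.53). The authors' processing tool was MAS5, with no version, per the submitters' processing notes; how background, summary and scaling were done is not given in the sources used here. Of 28826 probe sets, 15209 carry 1 gene symbol, 306 several and 13311 none. Symbols other than the members' were updated through Entrez IDs (15178 found in RefSeq GRCr8).

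Probe sets at or below the 40th percentile of the mean (log2 4.78) were left out, and the brightest probe set stood for each of 10025 genes. limma 3.58.1 in R 4.3.3 (lmFit, eBayes with intensity trend; 8 residual degrees of freedom) fitted a mean per group over all 12 arrays, adjusted by Benjamini-Hochberg within each comparison. The number of arrays limits the precision. In simulated γ+ arrays of 10025 genes, only 50 genes were changed at each size. The same fit called 22.0% of those changed by 0.25 log2, 88.0% at 0.5, and all at 1 or 2. In the real γ+ arrays 64.9% of genes were called against control, which makes the adjusted threshold easier to pass. Hadh was called there at 0.18, so the simulated shares do not carry over to the γ+ comparisons. Arrays of 1 number did not deviate together, so the fit has no pairing.

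Every member is named; values on each array were given for up to 5 of the largest called rises and falls per comparison, for Cd36, Cpt1a, Cpt1b, Cpt2, Hadha and Hadhb, and for others that a sentence turns on. Up to 3 of the largest called rises and falls in γ+ against control of the regulators and of the further path genes were named, with Ppara and Ppargc1a. Members, lists and tests were chosen with earlier results of these data known.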

Additional observations from a re-analysis of the deposited data

How the results depend on the processing

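The 9 alternatives were median centring, quantile normalization, no filter, a stricter filter (60th percentile), averaging of probe sets, no intensity trend, array weights, the replicate block and the compared groups alone, with 12 further runs leaving out an array each. No call reversed its direction. Over 5142 single results, 5004 kept their side of the threshold, 71 lost a call and 67 gained one. The counts of lower members in the γ+ group kept within 1.5 times of 30 (control), 32 (γ-) and 31 (23/24) throughout, at 30 to 32, 30 to 33 and 30 to 32 when an array was left out. The 1 higher member became 2 against control without a filter, 2 against γ- under quantile normalization or array weights, and, against 23/24, 2 under median centring, quantile normalization or no filter and 3 with array weights. Leaving out an array gave 0 to 1, 0 to 1 and 1 in these comparisons.

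For the γ- group against control, 1 higher member became 2 (quantile normalization, no filter) or 4 (array weights, compared groups alone), and 2 lower became 0 (median centring, replicate block) or 1 (60th percentile, mean over probe sets). Leaving out an array gave 0 to 4 higher and 0 to 4 lower. For γ- against 23/24, 3 higher and 0 lower became 9 and 3 with array weights and 8 and 2 in the compared groups alone, and 1 to 8 and 0 to 2 leaving out an array. For 23/24 against control, 1 member was lower with array weights, which gave γ+ replicate 2 a weight of 0.13. The cause of these moves was not tested. Over all genes, the 696 calls of γ- against control became 436 with median centring, 425 at the 60th percentile, 1363 without a filter, 1745 with array weights, 1373 in the compared groups alone and 267 to 1665 leaving out an array. The 812 of γ- against 23/24 became 488 at the 60th percentile, 1641 without a filter, 2528 with array weights, 1760 in the compared groups alone and 263 to 1838. The 0 of 23/24 against control became 220 with array weights, 1 under quantile normalization and 0 to 58. With the replicate block, 30 and 1 members were again called in γ+ against control, and 2 higher in γ- against 23/24. Same-numbered arrays of different groups deviated from their group means with correlations of -0.22 to 0.12 over 18 pairs, and 0 of 12 arrays correlated best with their own number. In the comparisons with few calls over all genes, differences near 0.25 log2 are at the limit of what 3 arrays a group can show. Smaller ones passed in the comparisons with the γ+ group.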
